A study of Mus musculus with 4 samples.

Results

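The 10 genes described here, Mmp8, Mmp9, Mmp25, Retnlg, Prok2, Stfa2l1, Cstdc4, Wfdc17, Asprv1 and Il1f9, were chosen by their symbols as late neutrophil maturation genes, and all 10 were present among the 32285 genes of the count matrices. They were measured by droplet single-cell RNA sequencing of total bone marrow, after lysis of erythrocytes, from 4 mice of the 5TMM model of multiple myeloma. In this model, 5TGM1-luc myeloma cells were injected intravenously into C57BL/KawRij mice at 6 weeks of age and treatment began 3 weeks later. 2 mice received vehicle and 2 received purinostat mesylate (PM), an inhibitor of class I and IIb histone deacetylases, at 10 mg/kg, and marrow was taken after 24 h. All 4 mice carried the myeloma cells, 1 library was made from each mouse, and no mouse free of myeloma cells entered the comparison. Of 39743 cells kept, 23519 were neutrophil-like by their markers, with 6437 and 4338 in vehicle mice 1 and 2 and 7226 and 5518 in PM mice 1 and 2.

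Neutrophils mature in the marrow from proliferating precursors, which make the enzymes of the primary granules, through non-dividing immature cells filled with secondary granule proteins, to mature cells that store gelatinase in a last set of granules and are ready to leave for the blood. The 10 genes are expressed late in this sequence. Mmp8 (neutrophil collagenase), Mmp9 (gelatinase B) and Mmp25 (a membrane-anchored matrix metalloproteinase) encode metalloproteinases, and Asprv1 encodes a retroviral-like aspartic protease best known for processing filaggrin in skin. Stfa2l1 and Cstdc4 encode small inhibitors of cysteine proteases from the stefin A cluster, and Wfdc17 encodes a small secreted protein with a WAP domain, a fold shared with inhibitors of serine proteases. Retnlg encodes a resistin-like secreted protein, Prok2 the chemokine-like ligand prokineticin, and Il1f9 the cytokine IL-36 gamma.

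The promoters of the 3 genes whose level passed the test between PM and vehicle mice in a neutrophil stage, Asprv1, Stfa2l1 and Cstdc4, are shown as the 250 bases before the RefSeq start (GRCm38.p6), in lower case with matches to the searched motifs in capitals. All 3 genes lie on the plus strand, and the windows are chr6:86627924-86628173 for Asprv1, chr16:36156561-36156810 for Stfa2l1 and chr16:36183962-36184211 for Cstdc4, so that the 2 inhibitor genes lie in the same stretch of chromosome 16.
Asprv1: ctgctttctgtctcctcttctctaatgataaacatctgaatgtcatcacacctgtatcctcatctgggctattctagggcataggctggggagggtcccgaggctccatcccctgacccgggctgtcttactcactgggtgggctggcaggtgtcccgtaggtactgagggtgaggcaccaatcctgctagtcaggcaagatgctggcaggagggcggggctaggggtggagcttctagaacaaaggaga
Stfa2l1: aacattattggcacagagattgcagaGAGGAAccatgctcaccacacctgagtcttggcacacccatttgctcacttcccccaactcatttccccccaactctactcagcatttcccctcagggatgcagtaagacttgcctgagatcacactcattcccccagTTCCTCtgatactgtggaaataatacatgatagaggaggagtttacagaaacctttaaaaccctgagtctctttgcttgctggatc
Cstdc4: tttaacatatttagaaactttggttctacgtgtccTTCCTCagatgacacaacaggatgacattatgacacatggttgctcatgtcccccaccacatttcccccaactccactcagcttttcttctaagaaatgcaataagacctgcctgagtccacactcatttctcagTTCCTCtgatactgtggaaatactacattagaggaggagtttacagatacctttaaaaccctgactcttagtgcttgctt
Both strands were searched for 5 motifs, with no overlap between matches of different motifs in these windows. The ETS-like letters GAGGAA, on either strand, were found in 6 of the 9 members' promoters on hand and in 23.3% of 32851 promoters of the same length. Stfa2l1 held them with first bases at -224 and -86 from the start, and Cstdc4 at -215 and -80. The C/EBP-like letters TTNNGCAA were found for Mmp8 and Retnlg, against 9.56% of all promoters. The TATA box letters TATAAA were found for Prok2 only on the strand opposite to the gene, as TTTATA at -46, against 12.4% on either strand. The AP-1-like TGANTCA was also found for Prok2, against 6.75%. The interferon-response-like motif (GAAA repeated after 2 free bases) was found for no member, against 2.98%. The Asprv1 window held none of these letters. These matches are descriptions of the letters only, and the Mmp9 promoter is not shown here.

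Neutrophil-like cells were divided into 10 clusters along maturation without using the 10 members, nor any gene whose level passed the test between PM and vehicle in neutrophil-like cells as a whole, and the clusters were joined into 4 stages. There were 3027 early cells, 8928 immature cells, 10167 mature cells and 1397 cells led by Il1b and Ptgs2. No interferon stage was set apart, and these stages include 964 cells that formed a cluster led by Ifit1 and Rsad2 among all cells. That cluster held 121 and 53 cells of vehicle mice and 502 and 288 of PM mice. Stfa2l1, Cstdc4 and Wfdc17 were among its 10 leading genes. The stages were named from marker lists, so the levels of the same markers describe the stages and are no test of them. All 8 early markers were highest in the early stage, 6 of 8 immature markers in the immature stage, and all 8 inflammatory markers in the Il1b/Ptgs2-led stage. Only 1 of 9 mature markers, Fpr1, was highest in the mature stage, and the other 8 were highest in the Il1b/Ptgs2-led cells, so that "mature" names a position between those stages. Levels below are UMIs of a gene per 1000000 UMIs summed over the cells of a stage in 1 mouse (CPM). A gene's level was called changed between PM and vehicle mice at an adjusted p under 0.05 with a log2 fold change beyond 0.5 in edgeR's quasi-likelihood test with Benjamini-Hochberg adjustment over all genes tested, and all adjusted p-values below are from this test. With 2 mice against 2, an exact permutation test of a single value cannot give a p below 0.33. A fit without 1 mouse leaves a single mouse in a group, so its spread comes from the other group alone. No p-value of such a fit is given.

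Libraries held 69828595 to 109447030 UMIs, and the mature-stage sums held 6914718 to 13483556 UMIs per mouse. Between 18 and 41 cell barcodes were shared by any 2 libraries, at most 0.431% of the smaller one. The median UMIs per mature cell were 3950 and 3672 in vehicle mice and 2798 and 3283 in PM mice. Of the early cells 9.05% were called doublets, of the immature cells 2.96%, of the mature cells 7.50% and of the Il1b/Ptgs2-led cells 1.22%, with the highest share, 25.4%, in the cluster early 1. UMIs of these genes were present in other cells. In B-like cells, which should lack these genes, the members had means of 13.1 CPM (Stfa2l1) to 573 CPM (Retnlg) over the 4 mice. In B-like cells of vehicle mouse 1, for example, 45 UMIs of Cstdc4 lay in 2.07% of the cells. Whether such UMIs came from free RNA or from barcodes that also held a neutrophil was not tested. The mean ratio of the mature-stage level to this B-like background lay between 27.4 for Mmp25 and 80.0 for Stfa2l1.

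The 10 genes peaked in different clusters. Mmp8 was at its highest mean in the last immature cluster, immature 3, at 4899 CPM, and this was the highest cluster in 3 of 4 mice. Mmp9 and Mmp25 had their highest means in mature 1, each in 2 of 4 mice, with the other mice peaking in immature 3 or mature 2. Retnlg and Prok2 were highest in mature 2 in all 4 mice. Cstdc4, Asprv1 and Il1f9 were highest in mature 3, the last mature cluster, in all 4 mice, and Stfa2l1 in 3 of 4. In mature 3 the inflammatory markers scored higher than the mature markers, at 2.12 against 1.89 (mean log2 level relative to all clusters). It counts as mature because the Il1b/Ptgs2-led stage required a lead of at least 1. Wfdc17 had its highest mean in the Il1b/Ptgs2-led cells, at 5409 CPM, in 3 of 4 mice.

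**Figure D1:**
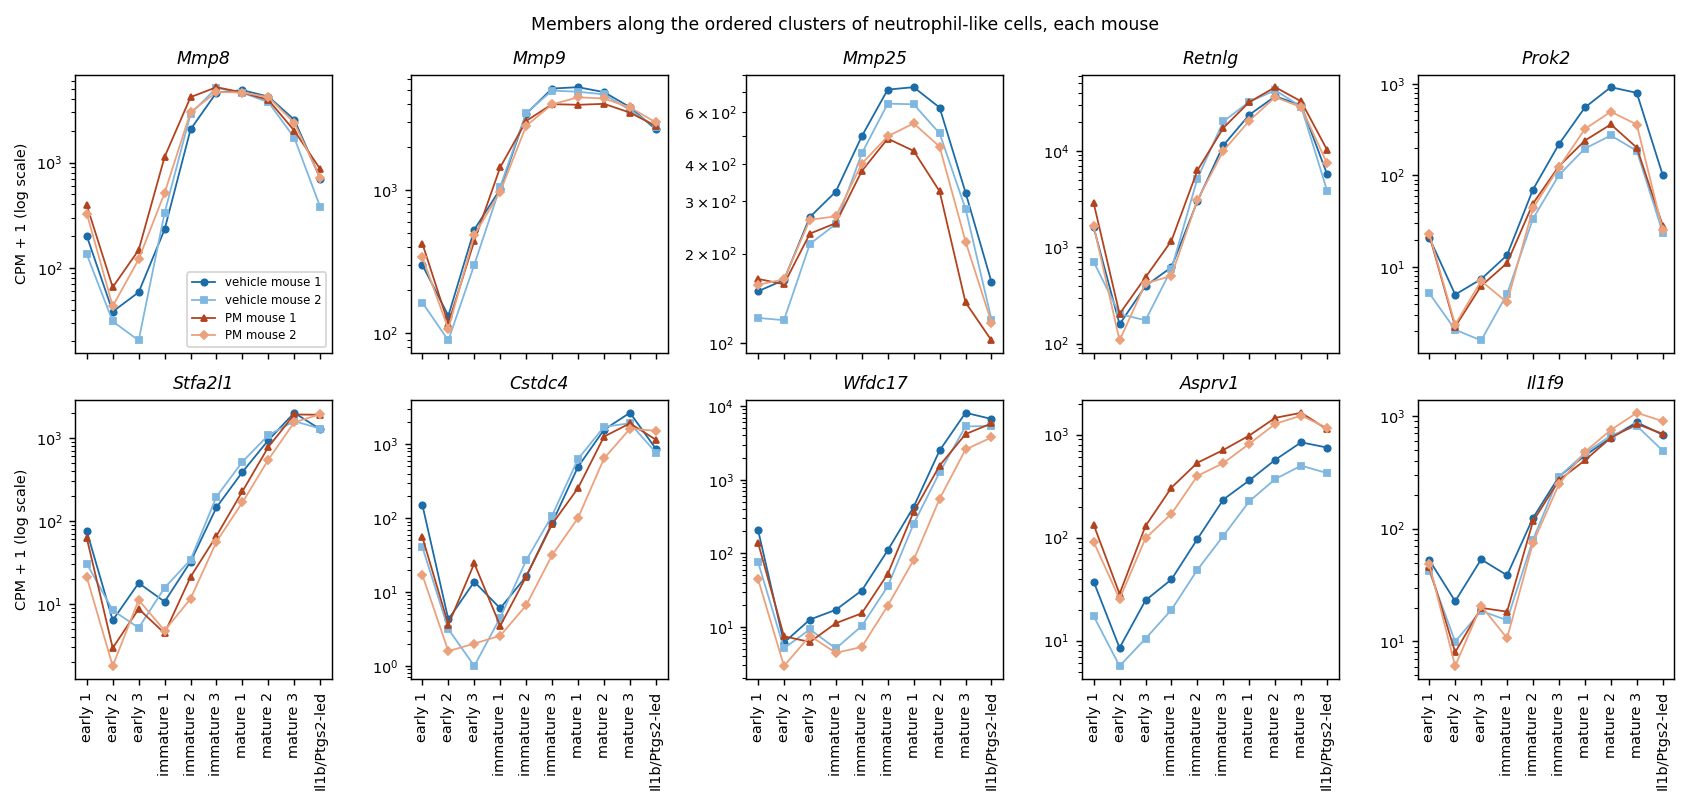
Level of each of the 10 genes along the 10 neutrophil-like clusters ordered by maturation (horizontal axis), as CPM + 1 on a log scale (vertical axis), with 1 line for each of the 4 mice, vehicle and PM in different colours. Mmp8 has its highest mean in the last immature cluster, at 4899 CPM, and a mean of 663 CPM in the Il1b/Ptgs2-led cells, Wfdc17 climbs to the last clusters, and the Asprv1 lines of both PM mice lie above those of both vehicle mice in 10 of 10 clusters.

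The step from the immature to the mature stage differed widely between the genes. Wfdc17 had a mean of 22 CPM in the immature and 2135 CPM in the mature stage, and Cstdc4 of 25.1 and 1212 CPM. No ratio is given for either, since the immature level was 0.231 to 0.811 of the level in B-like cells of the same mouse for Wfdc17 and 0.480 to 3.02 of it for Cstdc4. The mature level of Stfa2l1 was on average 26.6 times its immature level, which was itself 2.28 to 5.53 times the B-like level. That immature level was 53.4 and 54.3 CPM in vehicle mice and 24.9 and 23.2 CPM in PM mice. T-like cells held 44.4 and 43.1 CPM against 47.5 and 10.1 CPM, so the ratio rests on a level near background. The mature levels of Prok2, Retnlg, Il1f9 and Asprv1 were 6.81, 6.06, 5.95 and 4.74 times their immature levels. For the metalloproteinases the step was small, at 1.52 times for Mmp9, 1.43 times for Mmp8 and 1.07 times for Mmp25. Mature cells held fewer UMIs than immature cells, and on UMIs per cell these 3 genes were lower in the mature stage, with a log2 ratio of -0.22 for Mmp9, -0.33 for Mmp8 and -0.74 for Mmp25.

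Beyond the mature stage the group divided. In the Il1b/Ptgs2-led cells the CPM of Wfdc17 was 1.87 times that of the mature stage or more in each of the 4 mice, and that of Stfa2l1 1.15 to 2.55 times. Asprv1 and Il1f9 lay on either side of their mature levels, at 0.852 to 1.27 and 0.757 to 1.17 times. Cstdc4 differed between the groups: vehicle mice were at 866 and 768 CPM, below their mature levels of 1578 and 1439 CPM, and PM mice at 1149 and 1519 CPM, above their mature levels of 1043 and 788 CPM. On average over the 4 mice, Retnlg was at 0.207, Mmp8 at 0.178, Mmp25 at 0.282 and Prok2 at 0.0983 of their mature levels, and Mmp9 at 0.657. These 5 genes stood below their mature level in each of the 4 mice.

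In CPM, some early and immature values lay at or near the level in B-like cells, which is read as background. B-like cells were shallower, with median UMIs of 2359 against 6186.5 in immature cells. Thinned to 1000 UMIs a cell, Cstdc4 was found in means of 1.35% of immature and 0.539% of B-like cells. For Wfdc17 these shares were 2.18% and 3.23%. The immature level of Asprv1 stood higher, at 5.13 to 20.7 times the B-like level. Wfdc17 had another source in these samples: with 562 CPM as the mean of monocyte-like and progenitor cells it was detected in 93.9% of those cells, against 6.68% of B-like cells, at median depths of 11015 and 2359 UMIs. After thinning each cell to 1000 UMIs these shares were 44.7% and 3.23%. Mmp8 was also detected in a mean of 72.8% of monocyte-like and progenitor cells. After the same thinning it was found in 21.5% of them, against 4.91% of T-like cells. For Mmp9 these thinned shares were 6.54% and 10.2%. Whether the Mmp8 UMIs came from these cells or from neutrophil RNA was not tested.

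In mature cells 2 of the 10 genes were called between PM and vehicle mice, Asprv1 higher and Cstdc4 lower, against 9.42% of the 9525 genes tested (576 higher and 321 lower). The median log2 fold change of the 10 genes was -0.32, beside 0.00 for all genes tested. Both PM mice were above both vehicle mice for 1 of the 10 genes and below for 5, against 29.8% and 27.3% of all genes.

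Among the proteases, Asprv1 rose. Its level in mature cells was 588 and 363 CPM in vehicle mice and 1319 and 1206 CPM in PM mice, with both PM mice above both vehicle mice. The log2 fold change was 1.39 ± 0.25 (SE, n = 2 mice a group; edgeR adjusted p = 0.0192), a rise of 2.62 times. Per cell, the mature stage held 2.58 and 1.45 Asprv1 UMIs in vehicle mice and 4.21 and 4.42 in PM mice. The share of mature cells with an Asprv1 UMI was 52.7% and 39.5% in vehicle mice and 85.8% and 82.2% in PM mice. Thinned to 1000 UMIs a cell, with 150 shallower mature cells left out, the shares were 31.3% and 21.6% against 65.4% and 60.2%, beside a mean of 1.09% in B-like cells. Without PM mouse 1 the log2 fold change was 1.28 and without PM mouse 2 it was 1.46, and the call was lost without either of them.

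The metalloproteinases had no call in mature cells. Mmp8 was at 3904 and 3398 CPM in vehicle mice and 3738 and 3723 CPM in PM mice, and the PM values lay between the vehicle values (log2 fold change 0.02 ± 0.17, edgeR adjusted p = 0.962). Mmp9 was at 4652 and 4428 CPM against 3870 and 4209 CPM (-0.18 ± 0.16, 0.489). Mmp25 was at 561 and 480 CPM against 324 and 408 CPM, without overlap, at -0.53 ± 0.16 (edgeR adjusted p = 0.0699). Without vehicle mouse 2 the Mmp25 value was -0.68.

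Among the inhibitors, Cstdc4 fell in mature cells. Vehicle mice were at 1578 and 1439 CPM and PM mice at 1043 and 788 CPM, and the groups did not overlap. The log2 fold change was -0.73 ± 0.19 (edgeR adjusted p = 0.042). Without PM mouse 2, the lowest of the 4, it was -0.53 and the call was lost. The call was also lost with called doublets removed (-0.62, edgeR adjusted p = 0.0609). Stfa2l1, which lies near it on chromosome 16, stood at 1101 and 1058 CPM in vehicle mice and 840 and 756 CPM in PM mice (-0.45 ± 0.15, edgeR adjusted p = 0.0918). Wfdc17 had the widest spread of the 3, at 3588 and 2156 CPM against 1724 and 1072 CPM (-1.05 ± 0.34, edgeR adjusted p = 0.102), again without overlap. Without vehicle mouse 2 the Wfdc17 value was -1.42, and without vehicle mouse 1, the highest of the 4, it was -0.60.

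The secreted signals did not pass the test in mature cells. Retnlg was at 30626 and 35084 CPM in vehicle mice and 37542 and 28364 CPM in PM mice, with the PM mice on either side of both vehicle mice (edgeR adjusted p = 0.997). Il1f9 was at 652 and 648 CPM against 599 and 765 CPM (0.05 ± 0.15, edgeR adjusted p = 0.854). Prok2 was at 770 and 222 CPM against 278 and 393 CPM, with vehicle mouse 1 far above the other 3 mice (-0.60 ± 0.73, edgeR adjusted p = 0.655). The Prok2 fold change depended on that group: it was 0.61 without vehicle mouse 1 and -1.27 without vehicle mouse 2.

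**Figure D2:**
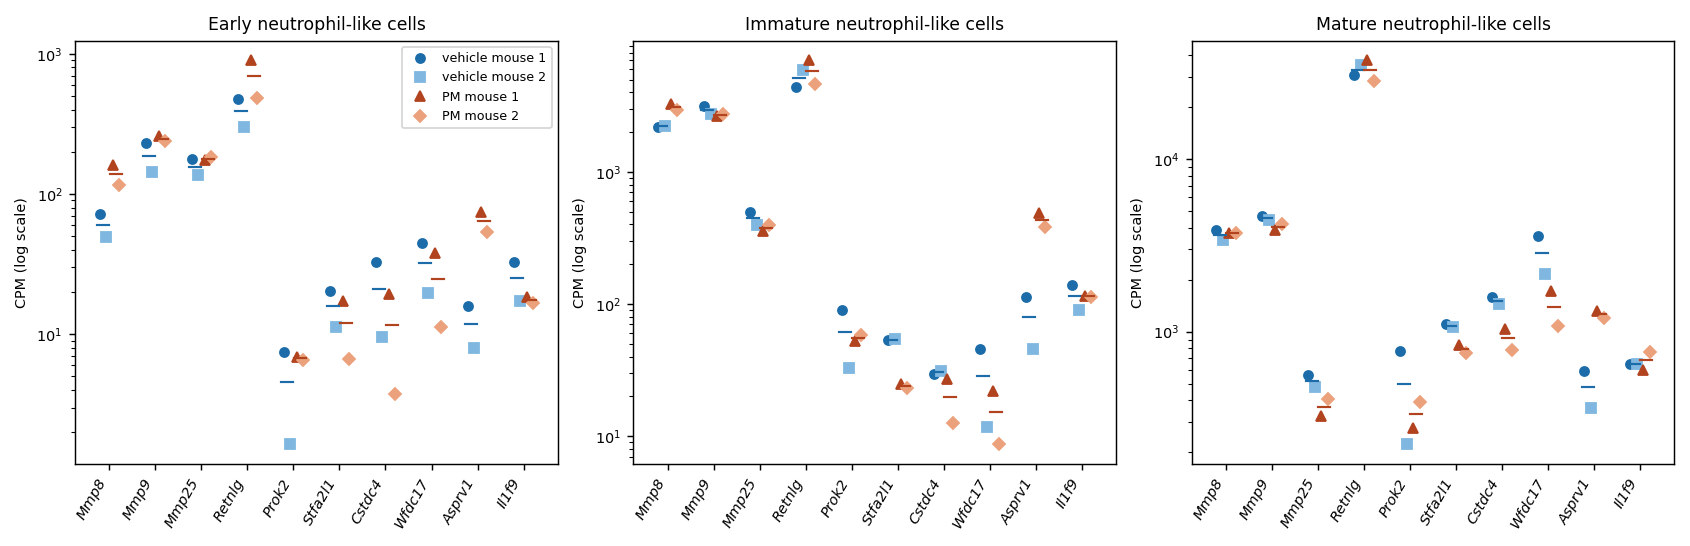
Level of each of the 10 genes in early, immature and mature neutrophil-like cells (horizontal axis), as CPM on a log scale (vertical axis), with 1 point for each of the 4 mice and bars for the means of the 2 vehicle and the 2 PM mice. The Asprv1 points of the PM mice lie above those of the vehicle mice in all 3 stages, and the Stfa2l1 points lie below them in the immature and mature stages.

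In immature cells 1 of the 10 genes was called, Stfa2l1, which was lower, against 7.30% of the 10448 genes tested. Both PM mice were above both vehicle mice for 2 of the 10 genes and below for 3, against 39.3% and 11.8% of all genes, and the members' median log2 fold change was -0.28. Stfa2l1 fell from 53.4 and 54.3 CPM in vehicle mice, 899 and 679 UMIs, to 24.9 and 23.2 CPM in PM mice, 416 and 298 UMIs. The log2 fold change was -1.29 ± 0.12 (edgeR adjusted p = 4.126e-05), and leaving out any 1 mouse kept it between -1.41 and -1.17. This is a low level: B-like cells held 23.4 and 9.81 CPM in vehicle mice and 9.68 and 9.63 CPM in PM mice, and T-like cells held 44.4 and 43.1 CPM against 47.5 and 10.1 CPM. The part of free RNA in the immature value was not tested. Within the stage the Stfa2l1 level lay mostly in immature 3, with 145 and 195 CPM in vehicle mice and 65.0 and 55.2 CPM in PM mice.

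Asprv1 in immature cells was at 114 and 45.7 CPM in vehicle mice and 488 and 382 CPM in PM mice. The groups did not overlap (log2 fold change 2.32 ± 0.64), and the edgeR adjusted p was 0.198. DESeq2, the study's own tool, gave 2.32 with an adjusted p of 0.0166. Over the fits without 1 mouse the edgeR adjusted p moved both ways, and it is not given for them.

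Mmp8 in immature cells was at 2180 and 2240 CPM in vehicle mice and 3254 and 2924 CPM in PM mice, without overlap (0.36 ± 0.15, edgeR adjusted p = 0.174). Mmp9, at 3165 and 2745 CPM against 2667 and 2734 CPM, had a value of -0.26 ± 0.15 (0.312). Mmp25 was at 501 and 395 CPM against 357 and 398 CPM (-0.38 ± 0.14, 0.120). Retnlg overlapped, at 4419 and 5949 CPM against 7043 and 4658 CPM, and so did Il1f9, at 140 and 89.6 CPM against 116 and 113 CPM. Prok2, at 90.5 and 33.0 CPM against 52.9 and 58.3 CPM, again had vehicle mouse 1 highest. Cstdc4, at 29.8 and 31.2 CPM against 26.9 and 12.6 CPM, and Wfdc17, at 45.8 and 11.7 CPM against 22.0 and 8.64 CPM, lay at or near the B-like level of these genes.

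In early cells none of the 10 genes passed the test, against 2.49% of the 10577 genes tested. Of the 10 genes 2, Asprv1 and Mmp8, had an unadjusted p under 0.05, beside 1762 of all 10577 genes tested. DESeq2 called 1, Asprv1, and its count over all genes is not given here. The members' median log2 fold change was 0.23, and 4 of the 10 genes were higher in both PM mice and none lower in both, against 30.5% and 11.2% of all genes. Asprv1 was at 15.8 and 7.97 CPM in vehicle mice and 74.4 and 53.7 CPM in PM mice (2.33 ± 0.36, edgeR adjusted p = 0.0571). Mmp8 was at 71.7 and 49.4 CPM against 160 and 116 CPM (1.13 ± 0.25, edgeR adjusted p = 0.0961). The Retnlg values were 475 and 301 CPM against 904 and 487 CPM (0.80 ± 0.42, 0.431). With called doublets removed, the Retnlg value turned to -0.23 and the Asprv1 value was 2.25 with an edgeR adjusted p of 0.00218. Mmp9 and Mmp25 were at 143 to 259 and 137 to 183 CPM. Prok2, Stfa2l1, Cstdc4, Wfdc17 and Il1f9 were under 50 CPM in each of the 4 mice. B-like cells held 194 and 71.6 CPM of Mmp8 in vehicle mice and 98.8 and 48.9 CPM in PM mice. T-like cells held more Mmp8 than early cells in each mouse, at 240 and 162 CPM against 416 and 208 CPM. The same held for Retnlg, at 1180 and 1072 CPM against 2101 and 987 CPM in T-like cells. The part of background RNA in the early values was not tested.

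Over all neutrophil-like cells Cstdc4 was the 1 member called, against 5.71% of the 12090 genes tested. It fell from 503 and 379 CPM to 278 and 259 CPM (-0.80 ± 0.17, edgeR adjusted p = 0.0266). Without vehicle mouse 1 the Cstdc4 value was -0.56 and the call was lost. Both PM mice were above both vehicle mice for 2 of the 10 genes, Mmp8 and Asprv1, and below for 3, the inhibitors Stfa2l1, Cstdc4 and Wfdc17, against 36.5% and 15.1% of all genes. Asprv1 went from 233 and 121 CPM to 553 and 539 CPM (1.53 ± 0.33, edgeR adjusted p = 0.0667). Stfa2l1 was at 373 and 319 CPM against 240 and 261 CPM (-0.55 ± 0.14, 0.0517), and Wfdc17 at 1200 and 705 CPM against 509 and 379 CPM (-1.18 ± 0.31, 0.0901).

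**Figure D3:**
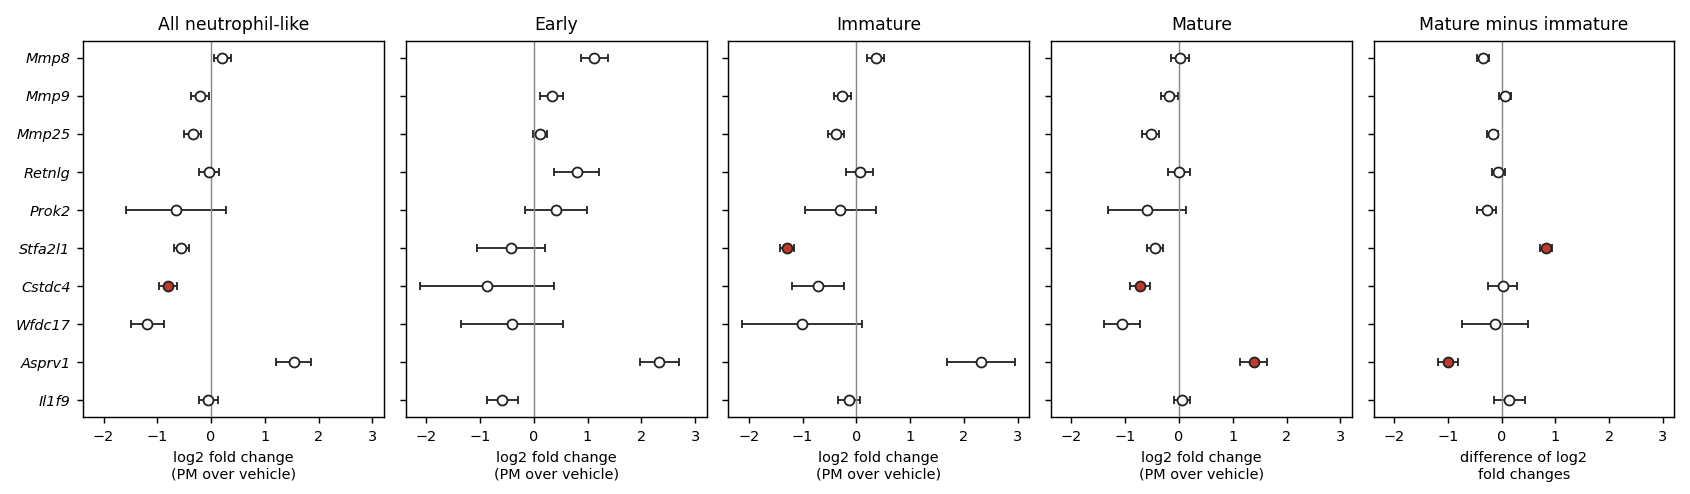
Log2 fold change of PM against vehicle for each of the 10 genes with its SE, in all, early, immature and mature neutrophil-like cells, and the difference of the fold change in mature minus immature cells, with the genes called by edgeR in red. Cstdc4 is called in all and mature cells, Stfa2l1 in immature cells, Asprv1 in mature cells, and Stfa2l1 and Asprv1 in the difference between stages.

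Whether the PM effect differed between the mature and the immature stage was tested by the interaction of stage and treatment, with the mouse as a block. It called 2 of the 10 genes, Stfa2l1 and Asprv1, against 4.01% of the 10777 genes tested. The mature to immature ratio of Stfa2l1 was 20.6 and 19.5 in vehicle mice and 33.7 and 32.6 in PM mice, a difference of 0.83 ± 0.11 on the log2 scale (edgeR adjusted p = 1.508e-07). For Asprv1 the ratio was 5.17 and 7.93 in vehicle mice and 2.70 and 3.16 in PM mice, a difference of -0.996 ± 0.18 (edgeR adjusted p = 0.0212). The call of Asprv1 was lost with the members kept in the clustering (-0.84, edgeR adjusted p = 0.18). Mmp8 had a value of -0.34 ± 0.11 (edgeR adjusted p = 0.0554), and the ratios were 1.79 and 1.52 in vehicle mice and 1.15 and 1.27 in PM mice.

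Along the 10 clusters, Asprv1 was higher in both PM mice than in both vehicle mice in 10 of 10, with log2 ratios of the means from 0.97 in the Il1b/Ptgs2-led cells to 3.01 in immature 1. In immature 1 the levels were 38.2 and 18.9 CPM in vehicle mice and 305 and 169 CPM in PM mice. Mmp8 was higher in both PM mice in 6 of 10 clusters, among them immature 1, with 231 and 331 CPM against 1129 and 513 CPM. The groups already overlapped in immature 3, with Mmp8 means of 4870 CPM in vehicle and 4929 CPM in PM mice. In mature 1 Mmp8 was at 4855 and 4587 CPM against 4621 and 4619 CPM. Stfa2l1 and Cstdc4 were each lower in both PM mice in 6 of 10 clusters. Some of these clusters lay below the B-like level. In immature 1 the vehicle and PM means were 12.1 and 3.58 CPM for Stfa2l1 and 4.26 and 2.02 CPM for Cstdc4. In B-like cells these means were 16.6 and 9.66 CPM for Stfa2l1 and 39.0 and 12.8 CPM for Cstdc4. In mature 1 Stfa2l1 was at 388 and 516 CPM in vehicle mice and 226 and 166 CPM in PM mice, and Cstdc4 at 494 and 630 CPM against 254 and 99.5 CPM. In the Il1b/Ptgs2-led cells both were higher in both PM mice: Stfa2l1 was at 1271 and 1295 CPM against 1903 and 1925 CPM, and Cstdc4 at 866 and 768 CPM against 1149 and 1519 CPM. These cluster values are descriptions, with no test. Mmp25 was lower in both PM mice in 6 of 10 clusters, from immature 2 to the Il1b/Ptgs2-led cells. The share of all genes that separated in this way is not given by cluster. By stage, early, immature and mature, it was 30.5%, 39.3% and 29.8% above and 11.2%, 11.8% and 27.3% below. The cluster counts are therefore not read as a result about the members.

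The share of cells in each stage bears on the values over all neutrophil-like cells. Mature cells made up 47.8% and 39.9% of the staged cells in vehicle mice and 40.3% and 44.4% in PM mice, 43.8% ± 5.55 against 42.3% ± 2.85 (SD, n = 2; exact permutation p = 1). This difference of -1.48 percentage points, PM minus vehicle, had no stable sign: it was 4.14 with the members kept in the clustering, 7.76 with stages on neutrophil variable genes, 2.44 without vehicle mouse 1 and 0.53 without PM mouse 1. Immature cells made up 34.3% and 36.2% against 41.4% and 39.0% (exact permutation p = 0.333, the smallest the design allows). The Il1b/Ptgs2-led share was 4.47%, 11.2%, 4.93% and 4.86% in vehicle mice 1 and 2 and PM mice 1 and 2. Giving the 3 mature clusters equal weight in every mouse left log2 ratios of 1.42 for Asprv1, -0.64 for Cstdc4, -0.94 for Wfdc17, -0.54 for Mmp25 and -0.33 for Stfa2l1.

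Other genes moved beside the members in mature cells. Of 15 secondary granule genes 4 were called higher and none lower, Lyz2 (0.97), Camp (0.85), Olfm4 (0.63) and Ceacam10 (0.50, log2), with a list median of 0.28. The primary granule genes Elane (1.52) and Mpo (1.48) were called higher among 10. Of all genes tested 9.42% were called in either direction. Elane was at 10.3 and 10.4 CPM in vehicle mice and 39.0 and 20.6 CPM in PM mice. The primary granule list median was 0.64 in mature cells, beside 0.77 in B-like and 0.68 in T-like cells. The source of these UMIs was not tested. All 17 tested cell cycle genes had positive values, with a median of 0.60. Of them edgeR and DESeq2 each called 0 and 3 had an unadjusted p under 0.05, beside 2642 of all 9525 genes tested. The 8 early markers summed to 0.111 and 0.0979 per mille of the UMIs of mature cells in vehicle mice and 0.287 and 0.160 per mille in PM mice, and the 8 interferon markers to means of 0.424 and 0.886 per mille. The 8 monocyte and progenitor markers summed to means of 1.05 and 1.49 per mille, and the 7 B markers to 0.00208 to 0.0146 per mille. None of these markers was at 0, and their part in the members' values was not tested.

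In other cells the members were read against the same background. Asprv1 rose in B-like cells, from 5.51 and 8.92 CPM to 28.8 and 23.1 CPM (1.67 ± 0.30, edgeR adjusted p = 0.00344), the 1 member called there, against 5.86% of the 10631 genes tested. Without PM mouse 1 this call was lost. The B-like values of Asprv1 rest on 4 and 30 UMIs in vehicle mice and 116 and 60 UMIs in PM mice. The members' median log2 fold change in B-like cells was -0.58, so the background was not the same in both groups. In macrophage-like cells Asprv1 went from 27.8 and 59.1 CPM to 266 and 235 CPM (2.62 ± 0.34, edgeR adjusted p = 0.0132), the 1 member called against 0.230% of the 6533 genes tested, in cells that also held 2292 to 5610 CPM of Retnlg. B-like cells stand here for cells without these genes, and Asprv1 was higher in their PM samples as it was in neutrophil-like cells. In monocyte-like and progenitor cells no member was called by edgeR, against 1.89% of the 11719 genes tested. Of the members 1, Wfdc17, had an unadjusted p under 0.05, beside 1765 of all genes tested, and was called by DESeq2. Wfdc17 there was at 791 and 605 CPM in vehicle mice and 471 and 382 CPM in PM mice, without overlap (-0.74 ± 0.18, edgeR adjusted p = 0.0735). In CAR-like cells, named from stromal markers such as Cxcl12 and Lepr, Wfdc17 was at 1128 and 1108 CPM in vehicle mice and 105 and 131 CPM in PM mice, from 18 to 112 UMIs a mouse, and no test was run there. These 27 to 68 cells a mouse also held Retnlg at means of 5949 CPM in vehicle and 11387 CPM in PM mice. The part of neutrophil RNA in their Wfdc17 values was not tested. In T-like cells no member was called by either tool, against 0.395% of the 9878 genes tested in edgeR. An unadjusted p under 0.05 was seen for 0 of 10 members, beside 1221 of all genes tested.

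**Figure D4:**
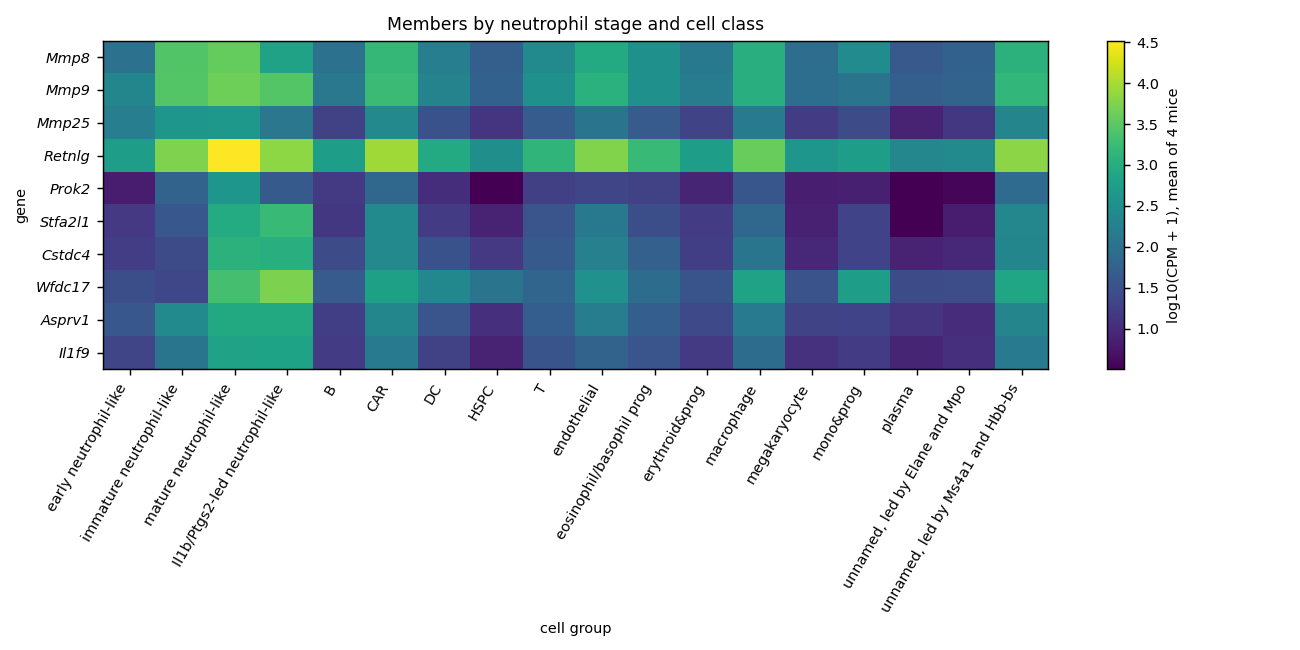
Mean level of each of the 10 genes over the 4 mice in the 4 neutrophil-like stages and 14 other classes of cells, as log10(CPM + 1) in colour. Each of the 10 genes stands highest in the mature or the Il1b/Ptgs2-led stage, and among the other classes Wfdc17 stands at 562 CPM in monocyte-like and progenitor, 618 CPM in CAR-like and 653 CPM in macrophage-like cells and 766 CPM in the unnamed class led by Ms4a1 and Hbb-bs. Of the 301 cells in that unnamed class, 85.7% were called doublets.

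The wider pathway was read from lists of other genes. Of 37 other late neutrophil genes, 1 was called higher in mature cells, the interleukin 1 receptor antagonist Il1rn, at 162 and 187 CPM in vehicle mice and 251 and 307 CPM in PM mice (0.66 ± 0.14, edgeR adjusted p = 0.0214). Also 1 was called lower, the decoy receptor Il1r2, at 272 and 195 CPM against 110 and 135 CPM (-0.95 ± 0.19, edgeR adjusted p = 0.0227), and the list median was -0.09. In immature cells 2 were called higher, Il1rn (1.18) and Arg2 (0.75), and 2 lower, the formyl peptide receptor Fpr2 (-0.83) and Lrg1 (-0.71). Of 13 other stefin genes listed, those of the stefin A cluster and Cstb, 8 were found. Of these 1 was called lower in mature cells, Stfa1, at 195 and 249 CPM against 155 and 121 CPM (-0.69 ± 0.17, edgeR adjusted p = 0.0394). Over all neutrophil-like cells Stfa1 (-0.99) and Stfa2 (-0.92) were both called lower. Stefin genes share sequence: of the 90-base windows of the Stfa2l1 transcripts 2.42% occur in Stfa2, and of those of Cstdc4 4.09% occur in other genes, chiefly 2010005H15Rik, while the other 8 members share none.

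Of 18 other metalloproteinases and inhibitors 6 were tested in mature cells. Of these edgeR and DESeq2 each called 0 and 2 had an unadjusted p under 0.05, beside 2642 of all 9525 genes tested. Another list held genes related to Il1f9, Prok2, Retnlg or Wfdc17, with 7 tested in mature cells. Of these Retnlb (1.33) and Il1rn (0.66) were called higher, against 9.42% of all genes called in either direction. In immature cells Retn (1.56) and Il1rn were called higher, Retn at 3.29 CPM or less in each mouse. Il1rn is the same gene as in the list of late neutrophil genes above, so it is counted in both. Across the 18 stages and classes, the gene whose profile was closest to the summed members was Adam8, with a Pearson correlation of log2(CPM + 10) of 0.98, followed by Fpr1, Dhrs9, Il1rn and Abtb1. For single members the closest were Gpr27 for Mmp8 (0.949), Adam8 for Mmp9 and Retnlg, Crispld2 for Mmp25 (0.993), Asb7 for Prok2 (0.931), Mirt2 for Stfa2l1, Cstdc4 and Il1f9, Sirpb1b for Wfdc17 (0.955) and Dhrs9 for Asprv1 (0.989). These 18 groups come from the same 4 libraries and may share background RNA, so the correlations are descriptions.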

How the data were processed

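Bone marrow cells of 2 vehicle and 2 PM mice, grouped by the sample labels, were captured with a 10x 3' kit, and the authors deposited 1 matrix of UMI counts per mouse, filtered to cells and not normalized. The file headers name Cell Ranger 6.0.1. The labels' processing notes list Cell Ranger and STAR with the build GRCm39, while the study's methods give GRCm38, and since the counts carry no coordinates, sequences and coordinates here are from GRCm38 references.

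From these counts, a barcode was kept when it had 300 genes or more and no more than 20% of its UMIs from mitochondrial genes (7826 to 13387 per mouse). They were clustered with scanpy 1.11.5 and leidenalg 0.10.2 on 2500 variable genes, 30 components and 15 neighbours (resolution 1, and 0.8 for stages), and clusters were named from marker lists as "-like" cells. 2 classes stayed unnamed. Doublets were scored by simulation and kept in the main result. The cut was set to call 0.8% of cells per 1000 barcodes. The called share, 6.01% to 10.8% of cells per mouse, therefore followed from the number of barcodes. Raw UMIs were summed per mouse and stage and tested in edgeR 4.0.16 (R 4.3.3) with TMM scaling, filterByExpr, and the robust quasi-likelihood test over all genes; the study used DESeq2, here version 1.42.0, as an alternative. Stages were compared with each other in 1 model with the mouse as a block. Permutation tests used scipy 1.17.1. Log2 differences of cluster means used a pseudocount of 1 CPM, and correlations of profiles used 10 CPM and genes reaching 50 CPM. Values carry counting error as well as the spread between mice. Replicates are separate mice.

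On simulated counts with 200 changed genes, the mature comparison recovered 61% of changes of 1 and 93% of changes of 2 on the log2 scale, over 9477 genes, and 11.0% of its calls were unchanged genes. The same shares of unchanged genes were 10.9% over all neutrophil-like cells, 16.6% in early cells, 11.6% in immature cells and 1.37% for the difference between stages, so the adjusted p-values, except the last, were somewhat optimistic at this size.

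The 10 members, the marker and pathway lists and the tests were chosen with earlier results of these data known. All members are named in every comparison; of each pathway list, the counts and up to 4 called genes with the largest absolute log2 fold change are named; and, for the summed members and each member, the genes with the most similar profile. Chosen after the data were seen were the doublet threshold, the rules for naming clusters and stages, the length of the promoter window and the space in which stages were clustered. That space was the second of 2 tried: the first, made from genes variable among neutrophil-like cells, divided cells by treatment and is kept as an alternative. The members' values over all neutrophil-like cells had been seen by then, and the tests by stage had not. Sequences are from RefSeq (9 of 10 members matched) and coordinates from GENCODE M21, where Cstdc4 carries the name Gm5483.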

Additional observations from a re-analysis of the deposited data

Results flagged for a closer look

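The PM effect on 2 members differed between mature and immature neutrophil-like cells by the test of the difference itself. For Stfa2l1 the difference of log2 fold changes, mature minus immature, was 0.829 (SE 0.11, edgeR adjusted p = 1.508e-07), from -1.29 in immature and -0.45 in mature cells. For Asprv1 it was -0.996 (SE 0.18, edgeR adjusted p = 0.0212), from 2.32 in immature and 1.39 in mature cells. The call of Asprv1 was lost when the members were kept in the clustering (-0.84, edgeR adjusted p = 0.18). That of Stfa2l1 held in 14 of 14 alternatives, which include the fits without 1 mouse. The Stfa2l1 level in immature cells overlapped that of T-like cells, as given above, and the part of free RNA was not tested.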

How the results depend on the processing

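The same-numbered vehicle and PM mice share only a number: their deviations correlated at -0.20 over all neutrophil-like, -0.20 in early, -0.13 in immature and -0.11 in mature cells. With the replicate block, 992 genes were called over all neutrophil-like, 469 in early, 741 in immature and 578 in mature cells, with 3, 4, 3 and 2 members; with the crossed pairing, added after seeing the data, 784, 349, 1017 and 406 genes with 2, 0, 1 and 1 members. Counts over the other alternatives were as follows, the cause of each shift being not tested. A count of members without the count of all genes beside it cannot be set against the share of all genes. It is not read as a result about the members. Library size alone called 2 members over all cells and 558 genes with 2 members in early cells. DESeq2 called 3 members over all cells, 1 in early cells, 467 genes with 2 members in immature cells, 530 genes in mature cells and 133 in the difference between stages. Without the filter on low counts, 1292 genes with 4 members were called over all cells, 643 with 3 in early cells and 1647 with 4 in mature cells. Stricter cell filters and dropping the Il1b and interferon clusters each called 2 members over all cells. With called doublets removed, 2 members were called in early and 1 in mature cells; at stage resolution 0.5, 1 and 1; at 1.2, 2 in early cells; with members kept in the clustering, 2 in early and 2 in immature cells. On the neutrophil variable genes, added after seeing the data, 4 members differed between stages. Leaving out 1 mouse at a time gave 308 to 908 genes with 1 to 4 members over all cells, 167 to 564 with 0 to 2 in early cells, 337 to 1022 with 1 to 3 in immature cells and 217 to 1475 with 0 to 5 in mature cells; the fewest genes came without vehicle mouse 1 in the first 3 and without PM mouse 1 in mature cells, where 409 genes and no member were called without PM mouse 2 and the most genes and members without vehicle mouse 2.

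The share of mature cells (PM minus vehicle) was 4.14 percentage points with members kept in the clustering and 7.76 on neutrophil variable genes, against -1.48. On UMIs per cell, mature over immature was -0.33 for Mmp8, -0.22 for Mmp9 and -0.74 for Mmp25 (log2).

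Values of members that turned sign were all uncalled as first reported. Over all cells, library size alone gave 0.039 for Retnlg and 0.038 for Il1f9, and leaving out 1 mouse -1.34 to 0.69 for Prok2, -0.26 to 0.14 for Il1f9 and -0.21 to 0.12 for Retnlg. In early cells, doublet removal gave -0.23 for Retnlg and -0.83 for Prok2, members in the clustering 0.27 for Cstdc4, and leaving out 1 mouse -1.42 to 0.11 for Stfa2l1, -2.69 to 0.30 for Cstdc4, -1.69 to 0.30 for Wfdc17, -0.047 to 0.30 for Mmp25 and -0.20 to 1.95 for Prok2. In immature cells, Retnlg was -0.33 with members in the clustering, -0.039 at resolution 0.5 and -0.60 on neutrophil variable genes, and leaving out 1 mouse gave -0.35 to 0.38 for Retnlg, -0.85 to 0.62 for Prok2, -1.96 to 0.31 for Wfdc17 and -0.43 to 0.23 for Il1f9. In mature cells Retnlg was 0.00082 with DESeq2 size factors and with DESeq2, 0.0053 with library size alone, 0.063 without doublets, 0.0088 with stricter filters, 0.031 at resolution 0.5 and 0.015 at 1.2; Mmp8 was -0.033 without the filter and Il1f9 -0.040 on neutrophil variable genes; and leaving out 1 mouse gave -1.27 to 0.61 for Prok2, -0.13 to 0.15 for Mmp8, -0.26 to 0.19 for Retnlg and -0.12 to 0.19 for Il1f9. For mature minus immature, library size alone gave -0.043 for Mmp9 and -0.076 for Cstdc4, no filter -0.024 for Cstdc4, doublet removal 0.040 for Wfdc17, members in the clustering 0.29 for Retnlg, 0.089 for Prok2 and 0.23 for Wfdc17, and resolution 0.5 gave 0.080 for Retnlg. On neutrophil variable genes the values were 0.059 for Mmp8, 0.12 for Mmp25, 0.51 for Retnlg, 0.16 for Prok2 and 0.67 for Wfdc17, and leaving out 1 mouse gave -0.23 to 0.090 for Retnlg, -0.15 to 0.40 for Il1f9, -0.28 to 0.47 for Cstdc4, -0.87 to 0.32 for Wfdc17 and -0.0090 to 0.14 for Mmp9.

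The fall of Stfa2l1 in immature cells was called in 15 of 15 alternatives. That of Cstdc4 was called in 11 of 15 in mature cells and 12 of 13 over all cells. The rise of Asprv1 was called in 13 of 15 in mature cells, with log2 fold changes of 1.04 to 1.82. These counts include the fits without 1 mouse, whose spread comes from 1 group alone. With 2 mice a group, values that miss the threshold do not show that levels were equal. Members low in early or immature cells are limited by their UMIs in B-like and T-like cells, whose source was not tested.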
